A study of Mus musculus with 4 samples.

Results

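The growth hormone axis of the liver was followed through 9 genes, taken by symbol from a table of 24138 rows: the growth hormone receptor (Ghr), the transcription factors Stat5a and Stat5b, the feedback inhibitors Socs2 and Cish, the repressor Bcl6, the hormone gene Igf1, its plasma carrier subunit Igfals, and the transcription factor Onecut1. The genes were chosen by their known roles in this axis and with their FPKM values in these same 4 livers in view, so the values below are descriptions and carry no test. RNA was sequenced from the liver of each of 4 mice of strain C57BL/6J (male, 18 weeks old), here called livers 1 to 4 after their labels. All 4 had been fed the FAT-MASH diet, which is used to produce metabolic dysfunction-associated steatohepatitis, and all 4 had been given RvD1 (resolvin D1), a lipid mediator of the resolution of inflammation. Livers without RvD1 or without the diet were not analysed here, so nothing below is an effect of either. The labels do not say whether the animals shared a cage or were killed on the same day, and the spread between livers holds whatever differed between them.

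Growth hormone is released by the pituitary in pulses, which in male rodents are separated by long intervals with very little hormone in plasma. On hepatocytes it binds its receptor, the associated kinase JAK2 phosphorylates STAT5, and STAT5 enters the nucleus and activates genes that include Igf1, Igfals, Socs2, Cish and Onecut1. SOCS2 and CIS, the product of Cish, then dampen the receptor, while BCL6 is a repressor that binds many of the same sites as STAT5 and whose gene is itself repressed by growth hormone. The pulsed pattern of the male also maintains the sex-biased expression of many liver genes.

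The deposited values carry no stated unit and were taken to be FPKM, fragments scaled by transcript length and by sequencing depth, so levels can be compared between genes. The depth was estimated from the lowest values at 18.8 to 20.1 M fragments (M, mega) per liver. The window of values used bounds this estimate, so it is rough, and its likeness between livers is not a result. All 9 genes were above 0 in all 4 livers and had a mean of at least 1 FPKM, as did 10541 rows of the table, which are called expressed genes below. Hepatocyte markers were abundant, with summed levels of 10 genes between 27880 and 32600 FPKM. Apoa1, Ttr and Apoc3 led this list, and Tat, Asgr2 and Cps1 varied most within it. Tissue RNA does not tell fewer cells of a type from less RNA per cell.

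The receptor gene had the highest level of the 9 and differed little between livers. Its values are for the whole gene and do not tell its transcripts apart. Ghr (chromosome 15, 3317755 to 3583352) was 216, 235, 214 and 253 FPKM in livers 1 to 4, a mean of 229 ± 18.1 FPKM (SD, n = 4). Its highest value was 1.18-fold its lowest. Stat5b, the form that carries most of the growth hormone signal in hepatocytes, was 9.68, 8.94, 9.90 and 10.3 FPKM (mean 9.69 ± 0.554, SD, n = 4). Its paralogue Stat5a was 3.94, 3.99, 4.48 and 5.53 FPKM (mean 4.48 ± 0.737, SD, n = 4). Stat5b was above Stat5a in every liver, by 1.85-fold in liver 4 to 2.46-fold in liver 1. The 2 genes lie next to each other on chromosome 11 (Stat5b at 100780731 to 100850585 and Stat5a at 100859351 to 100885169) and are similar in sequence, so the split of shared fragments between them is uncertain.

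The feedback inhibitors were low in liver 1. Socs2 (chromosome 10, 95411490 to 95416857), which encodes an adaptor that targets the activated receptor for degradation, was 3.13, 14.1, 12.6 and 13.8 FPKM in livers 1 to 4. Liver 1 stood alone, and the next lowest liver was 4.02-fold higher, while the other 3 lay within a narrow band. Cish (chromosome 9, 107296689 to 107301961), which encodes an inhibitor that binds phosphorylated receptors, was 1.19, 6.16, 7.23 and 22.2 FPKM. Here liver 1 was the lowest, with the next liver 5.20-fold higher, and liver 4 was also apart, 3.07-fold above the second highest. The means were 10.9 ± 5.23 FPKM for Socs2 and 9.20 ± 9.06 FPKM for Cish (SD, n = 4), and without liver 4 the mean of Cish was 4.86 FPKM. From the estimated depth and the median length of the coding transcripts, the lowest values rest on about 59.5 fragments for Socs2 and 65.3 for Cish, a counting error of about 13.0% and 12.4%. These fragment numbers and errors inherit the limits of the rough depth estimate, and they cover counting error only.

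The repressor gene was high in liver 1. Bcl6 (chromosome 16, 23965052 to 23988612) was 25.6, 4.14, 5.66 and 3.69 FPKM in livers 1 to 4, so that liver 1 was 4.53-fold above the second highest liver. Its mean was 9.78 ± 10.6 FPKM (SD, n = 4), an SD larger than the mean, and without liver 1 the mean was 4.50 FPKM. Onecut1 (chromosome 9, 74861921 to 74889647), also called HNF6, encodes a factor that growth hormone stimulates and that acts on many hepatocyte genes. It was 1.25, 6.20, 23.7 and 7.33 FPKM (mean 9.63 ± 9.77, SD, n = 4), with a mean of 4.92 FPKM without liver 3. Liver 1 was again the lowest, with the next liver 4.97-fold higher, but the highest was liver 3, at 3.24-fold the second highest. Onecut1 and Cish therefore shared their lowest liver and not their highest.

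**Figure D1:**
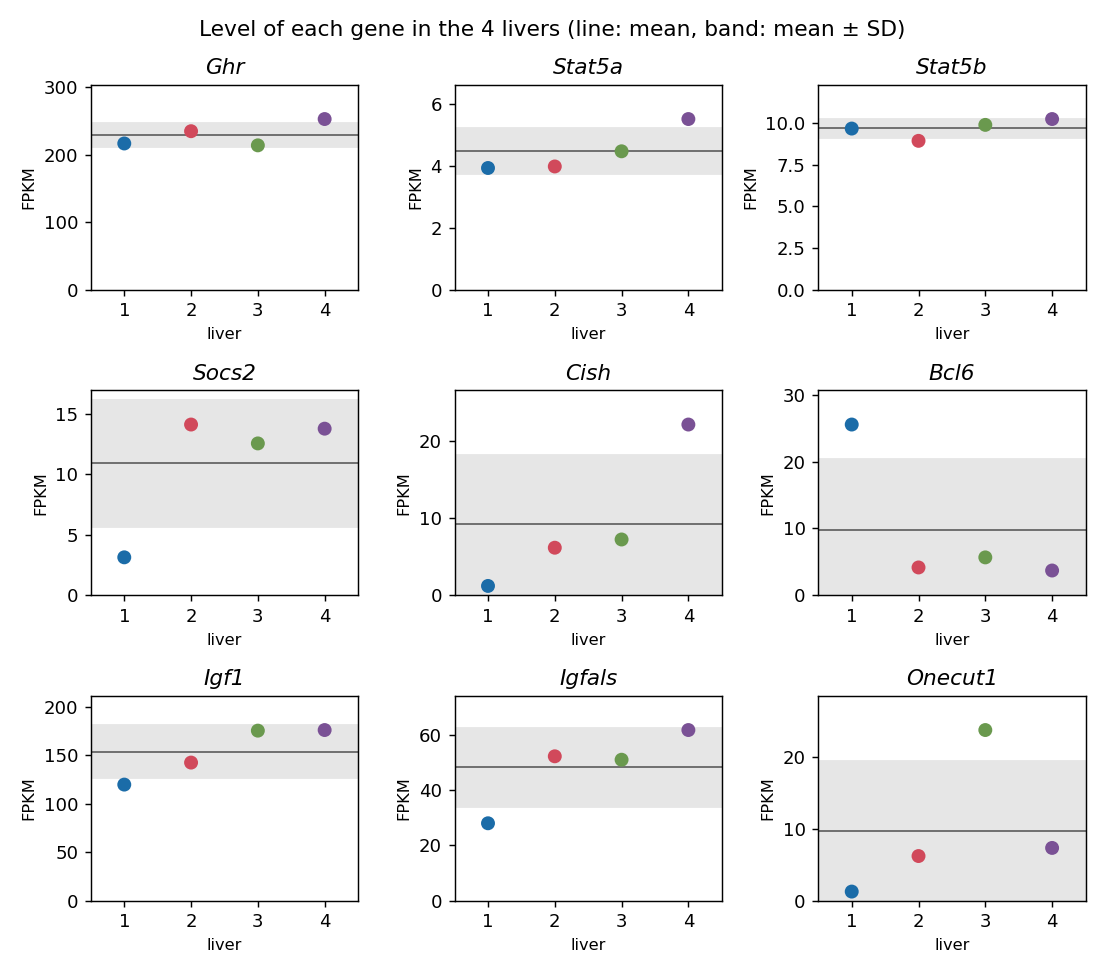
FPKM of each of the 9 genes (vertical axes, each from 0) in livers 1 to 4 (horizontal axes), 1 point per liver, with the mean as a line and the mean ± SD as a grey band. Socs2 at 3.13 FPKM and Bcl6 at 25.6 FPKM set liver 1 apart in opposite directions, while Ghr and Stat5b lie close to their means in all livers.

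The genes of the circulating products varied less than Socs2, Cish, Bcl6 and Onecut1. Igf1 (chromosome 10, 87859056 to 87937047), the growth factor that the liver secretes under growth hormone, was 119.6, 142, 175 and 176 FPKM in livers 1 to 4, a mean of 153 ± 27.4 FPKM (SD, n = 4). Igfals (chromosome 17, 24878770 to 24882008), whose product holds IGF1 and its binding protein in a long-lived plasma complex, was 28.1, 52.4, 51.1 and 61.9 FPKM (mean 48.4 ± 14.4, SD, n = 4). Both were lowest in liver 1 and highest in liver 4. The distance was larger for Igfals, whose highest liver was 2.21-fold its lowest, than for Igf1, where this ratio was 1.47.

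The 9 genes thus split by how far the livers lay apart. On the log2(FPKM + 1) scale the SD between livers was 0.11 for Ghr, 0.19 for Stat5a and 0.08 for Stat5b. It was 0.27 for Igf1 and 0.49 for Igfals, and reached 0.91 for Socs2, 1.17 for Bcl6, 1.40 for Cish and 1.42 for Onecut1. The median over the 9 genes was 0.49, and the median over all expressed genes was 0.16. The spread of several genes rested on liver 1. Without it the median of the 9 genes was 0.17, and the SD was 0.08 for Socs2, 0.15 for Igfals, 0.17 for Igf1 and 0.26 for Bcl6. Those of Cish and Onecut1 were also smaller but still wide, at 0.93 and 0.97, and those of Ghr, Stat5a and Stat5b were slightly larger without liver 1, at 0.12, 0.20 and 0.09. An SD of at least 0.5 was found for 4 of the 9 genes and for 1.55% of expressed genes, and only 16 of 10541 expressed genes had an SD as large as that of Onecut1, itself included. Igfals lay just below this limit, and 1.68% of expressed genes had an SD at least as large as its own. For Igf1 this share was 15.0%. These genes were picked with this spread in view, so their count is not a result against the background.

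**Figure D2:**
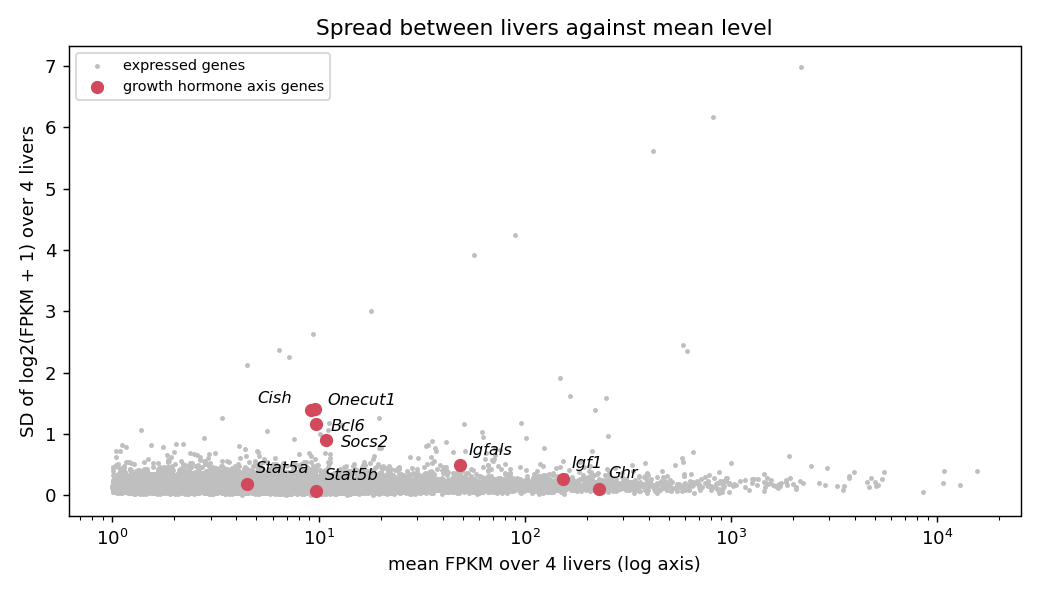
SD of log2(FPKM + 1) over the 4 livers (vertical axis) against the mean FPKM on a log axis (horizontal axis), with the 10541 expressed genes in grey and the 9 growth hormone axis genes in red. Onecut1, Cish, Bcl6 and Socs2 have SDs from 0.91 to 1.42, whereas Ghr and Stat5b, at 0.11 and 0.08, are below the median of 0.16.

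Which liver was extreme was also counted. The lowest value was in liver 1 for 6 of the 9 genes (Stat5a, Socs2, Cish, Igf1, Igfals and Onecut1), against 20.7% of expressed genes. The highest value was in liver 1 for Bcl6 alone, against 17.9% of expressed genes. Liver 4 had the highest value for 6 genes (Ghr, Stat5a, Stat5b, Cish, Igf1 and Igfals), against 33.3% of expressed genes, so liver 4 was often the highest across the whole table too. For Igf1 and Stat5b it was only 1.004-fold and 1.035-fold above liver 3. Scaling by the median ratio between livers divides liver 4 by 1.036 and liver 3 by 0.989, which puts liver 3 first for both. A liver far from the others, defined as a gap to the nearest liver that is large against the whole range (Dixon's ratio, at its 95% critical value), was found for Socs2 alone among the 9 genes and for 5.46% of expressed genes. For Bcl6 this ratio was 0.80 on the log2 scale and 0.91 on the FPKM scale, so its call depends on the scale.

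**Figure D3:**
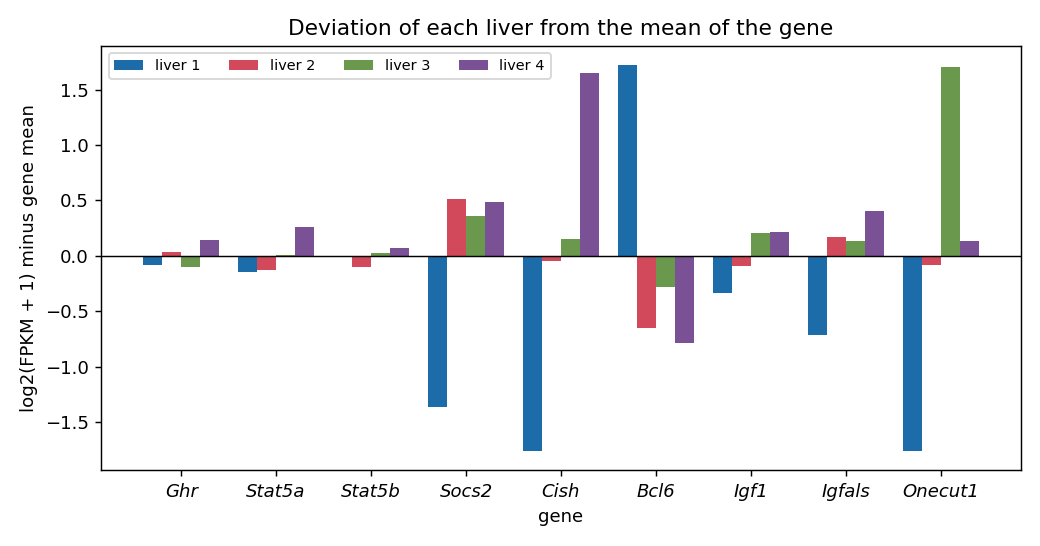
Difference between log2(FPKM + 1) in each liver and the mean of the gene (vertical axis) for the 9 genes (horizontal axis), 1 bar per liver. Liver 1 lies at -1.36 for Socs2, -1.76 for Cish and -1.76 for Onecut1, and at 1.72 for Bcl6.

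The order of levels was the same in all livers at the top and mixed below. Ghr, Igf1 and Igfals held ranks 1, 2 and 3 in every liver, and the ranges of these genes and of the next gene did not overlap. Each of the other 5 neighbouring pairs in the order of means (Socs2, Bcl6, Stat5b, Onecut1, Cish, Stat5a) overlapped in range. The order of these means rests on single livers: without liver 1, Bcl6 at 4.50 FPKM was below Stat5a at 4.67 FPKM. Bcl6 ranked 4 in liver 1 and 8, 8 and 9 in livers 2 to 4. The ratio of Socs2 to Bcl6 was 0.122 in liver 1 and 3.41, 2.22 and 3.74 in livers 2 to 4, so the balance of the 2 transcripts was inverted in liver 1. The ratio of Cish to Bcl6 ran from 0.0463 in liver 1 to 6.02 in liver 4.

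Sequences around the start sites are shown because the products of Stat5a, Stat5b and Bcl6 bind related motifs. RefSeq windows on GRCm38.p6, from 250 bases before to 50 bases after a start, were at hand for 8 of the 9 genes (14 windows); Socs2 had no entry. The STAT5 motif TTCNNNGAA, which reads the same on both strands, was found in 5 of the 14 windows, those of 3 genes (Cish, Bcl6 and Igfals), and in 8.30% of all 32851 windows. The narrower TTCCNGGAA, which is contained in the first, was found in 2 of the 14 windows (Cish and Bcl6) and in 1.15% of all windows. Matches are in capitals, each line runs 5′ to 3′ on the strand of the gene, and a match is a description of letters, not of binding.
Cish: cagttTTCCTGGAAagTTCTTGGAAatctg
Bcl6 start a: agcaaattagTTCTCAGAAttccagaggcc
Bcl6 start b, far match: aggccgcggcTTCCTGGAAagttacttctc
Bcl6 start b, middle match: ggcaggagtgTTCTGTGAAatccttagagc
Bcl6 start b, near match: atcgactacgTTCCGGGAAtgagagggctg
Igfals start a: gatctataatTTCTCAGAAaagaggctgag
Igfals start b: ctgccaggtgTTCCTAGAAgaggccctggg

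The Cish stretch (chr9:107296654-107296683, plus strand) holds 2 matches, the first beginning at the annotated start base, 107296659, and the second 11 bases further on, both inside an exon of GENCODE vM21. Both lie before the deposited span of Cish, which begins at 107296689. The matches of the other genes lie outside the exons of GENCODE vM21. Only 0.457% of all windows had 2 or more matches. The matches of Bcl6 start b, which lies inside the deposited span of the gene at 23981283, begin 168, 122 and 88 bases before the start (chr16:23981432-23981461, chr16:23981386-23981415 and chr16:23981352-23981381, minus strand), and 3 or more matches were found in 0.0335% of all windows. The match of Bcl6 start a begins 118 bases before it (chr16:23988951-23988980, minus strand). Those of Igfals begin 236 and 58 bases before 2 different starts (chr17:24877598-24877627 and chr17:24878163-24878192, plus strand), while its remaining window, whose start at 24878747 is nearest to the deposited span, had none. The windows of Ghr, Stat5a, Stat5b, Igf1 and Onecut1 had no match in these letters.

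The genes whose values over the livers were most like those of the 3 widest members were found by the Euclidean distance between log2 deviations, among 6530 other genes averaging 5 FPKM or more. With 4 livers this is a description. Nearest to Cish was Gadd45g, a growth arrest gene, at 4.39, 6.59, 5.70 and 24.0 FPKM in livers 1 to 4 (distance 1.20), with Nrep (1.29) and Serpina4-ps1 (1.33) next. Nearest to Onecut1 were Serpina4-ps1 (4.61, 9.85, 34.1 and 30.2 FPKM, distance 1.14), Nrep (1.37) and the translation repressor gene Eif4ebp3 (1.43). Nearest to Bcl6 was Ly6d (60.96, 29.8, 27.5 and 21.8 FPKM, distance 1.01), and Nr0b2, which encodes the corepressor SHP, was also near (1.20). A gene with the same value in all livers would lie at 2.42 from Cish, 2.45 from Onecut1 and 2.02 from Bcl6, so these likenesses were partial.

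Other genes of the receptor pathway were listed too. Of 22, 19 were expressed, with a median SD of 0.15 against 0.16 for all expressed genes. The receptor's kinase gene Jak2 was 3.93, 4.13, 3.71 and 4.06 FPKM in livers 1 to 4. Stat3, Shc1 and Sh2b1 were the most abundant, at 20.8 ± 0.593, 19.4 ± 2.07 and 15.1 ± 2.49 FPKM (each SD, n = 4). Socs3, a feedback inhibitor induced by interleukin 6 among others, was 1.73, 2.17, 2.59 and 2.87 FPKM, lowest in liver 1 but with a far smaller range than Socs2. The widest were Irs2 (3.95, 3.54, 1.87 and 2.27 FPKM), Prlr, the prolactin receptor gene (5.82, 10.8, 6.94 and 7.93 FPKM), and Pik3r1 (8.65, 10.1, 12.1 and 13.3 FPKM). The growth hormone gene Gh itself was listed at 0 in all livers.

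In the IGF system, 9 of 14 genes were expressed. The binding protein genes Igfbp4, Igfbp2 and Igfbp7 were the most abundant, at 975 ± 137, 461 ± 117 and 343 ± 61.5 FPKM (each SD, n = 4). Igfbp1, which insulin represses, had the largest SD of the list, 1.16, at 59.3, 104, 19.6 and 20.1 FPKM in livers 1 to 4. Its high livers were 1 and 2, an order that neither Igf1 nor Igfals had. Igfbp6 was 0.578, 2.12, 1.28 and 0.877 FPKM. Igfbp3, whose product forms the plasma complex with IGF1 and the Igfals product, was 8.84, 14.0, 8.01 and 10.1 FPKM. The receptor gene Igf1r had a mean of 0.303 ± 0.0775 FPKM and Igf2 one of 0.126 ± 0.0864 FPKM (each SD, n = 4).

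Among 12 transcription factor genes that act with this axis, 11 were expressed. Onecut2, the paralogue of Onecut1, was 6.07, 6.44, 5.56 and 6.25 FPKM in livers 1 to 4, an SD of 0.08 against 1.42 for Onecut1. Cux2, a female-biased repressor gene, had a mean of 0.0994 ± 0.0612 FPKM (SD, n = 4). Cebpa (142, 181, 293 and 160.0 FPKM) and Hnf4a (93.9, 104, 156 and 118 FPKM) were highest in liver 3, and Rxra had a mean of 101 ± 11.0 FPKM (SD, n = 4). Foxa3 (11.4, 11.5, 22.1 and 20.9 FPKM) and Foxa2 (12.6, 12.9, 19.5 and 21.0 FPKM) were higher in livers 3 and 4 than in livers 1 and 2.

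The sex-biased genes, which depend on the growth hormone pattern over days, did not follow the order of Socs2 or Bcl6. Of 24 male-biased genes 21 were expressed, and the lowest liver was liver 2 for 17 of them, against 29.9% of expressed genes, and liver 1 for 3, against 20.7%. The median of their log2 deviations was 0.03, -0.50, 0.18 and 0.18 in livers 1 to 4. Values above the mean of the gene were found for 13, 1, 17 and 21 of the 21 genes in livers 1 to 4, against 47.2%, 45.1%, 47.0% and 60.8% of expressed genes. Mup20, a urinary protein gene, was 11388, 7078, 10859 and 13664 FPKM, and Cyp2d9 was 871, 580.3, 1074 and 968 FPKM. Mup3 had a mean of 4698 ± 447 FPKM (SD, n = 4). Mup genes are near-identical copies, so their separate values are uncertain, including the 2.53, 0.351, 3.17 and 5.14 FPKM of Mup1. Selenbp2 was 50.2, 42.2, 122 and 72.3 FPKM, and Hsd3b5 1.13, 1.34, 4.26 and 3.58 FPKM.

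Of 24 female-biased genes 9 were expressed, and 3 were listed at 0 in all livers. Their median deviation was 0.33 in liver 2, with 8 of 9 above the mean (45.1% of expressed genes were), and between -0.10 and -0.05 in the other livers. Cyp4a10 had a mean of 229 ± 21.3 FPKM (SD, n = 4). Cyp17a1 was 15.1, 25.8, 13.8 and 15.9 FPKM, Acot3 6.42, 15.3, 4.46 and 19.5 FPKM, and Abcd2 7.14, 8.22, 3.94 and 6.84 FPKM in livers 1 to 4.

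**Figure D4:**
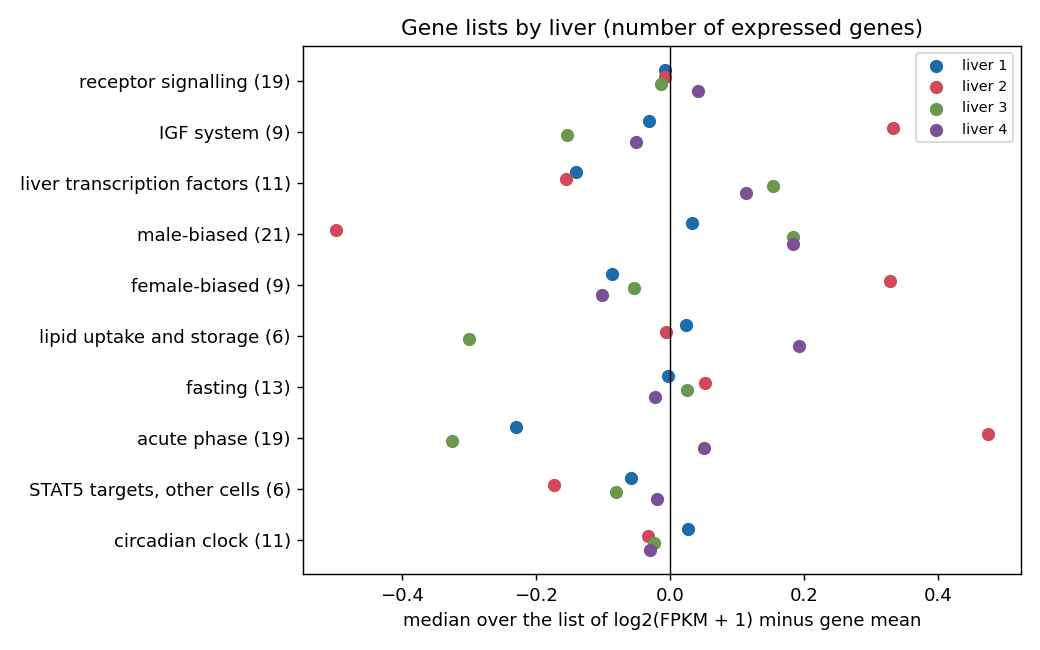
Median over each gene list of the difference between log2(FPKM + 1) in a liver and the mean of the gene (horizontal axis), 1 point per liver, with the number of expressed genes beside each list (vertical axis). In liver 2 the male-biased list lies at -0.50 and the acute phase list at 0.47, while liver 1 lies at 0.03 for the male-biased list.

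Acute phase genes, which inflammatory cytokines induce in hepatocytes, were examined beside these values. All 19 were expressed, and in liver 2 none was below its mean, and the median log2 deviation there was 0.47. The medians of the other livers were -0.23 for liver 1 (2 of 19 above the mean), -0.32 for liver 3 (3 of 19) and 0.05 for liver 4 (10 of 19), against 47.2%, 47.0% and 60.8% of expressed genes above their mean in livers 1, 3 and 4 and 45.1% in liver 2. Deviations are from the mean of the 4 livers, and without liver 2 the median of liver 1 was 0.03. Saa1 (139, 2135, 45.6 and 131 FPKM), Saa2 and Lcn2 had the largest SDs, and Hpx, Hp and Fgg the highest means. Thus the liver with the highest acute phase transcripts was the one with the lowest male-biased transcripts, and in it Socs2, Cish and Bcl6 lay at 14.1, 6.16 and 4.14 FPKM, near those of livers 3 and 4 except for the 22.2 FPKM of Cish in liver 4. The part of the acute phase difference in these values was not tested.

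Bcl6 is also expressed by lymphocytes, and markers of other cells were measured beside it. The summed level of 7 T and NK cell genes was 3.71, 4.47, 4.15 and 2.93 FPKM in livers 1 to 4, led by Nkg7, Il2rb and Cd3g, with none of the 7 at 0 in all livers. The sum of 6 B and plasma cell genes was 3.85, 5.37, 5.05 and 4.83 FPKM, led by Cd79b, Cd79a and Jchain. Only 1 of the 7 and 3 of the 6 genes were expressed by the 1 FPKM rule. Liver 1 was the highest in neither sum but had the highest Il2rb, at 0.964 FPKM, and the highest Cd79a, at 1.25 FPKM. The part of lymphocytes in the Bcl6 values was not tested. The sum of 9 Kupffer cell and macrophage genes was 204, 293, 189 and 273 FPKM (C1qb, C1qa and Cd5l led, and Cd68 was among the widest). It was 48.1, 65.6, 54.1 and 60.4 FPKM for 7 endothelial genes, led by Clec4g, Oit3 and Pecam1, with Kdr and Lyve1 among the widest. Stellate cell genes, led by Dcn, Col1a1 and Col3a1, summed to 237, 298, 194 and 217 FPKM over 7 genes, with Pdgfrb among the widest. The 5 cholangiocyte genes summed to 233, 204, 192 and 213 FPKM, led by Spp1, Epcam and Krt19, with Sox9 and Krt7 among the widest. Liver 1 lay above the gene mean for 0 of 7 endothelial and 0 of 8 expressed Kupffer cell and macrophage genes. It did so for 6 of 7 stellate and 3 of 5 cholangiocyte genes, against 47.2% of expressed genes. The part of cell content in the values of the 9 genes was not tested. Of 4 adipose genes, Plin1, Lep and Retn were listed at 0 in all livers, and Adipoq reached at most 0.0528 FPKM.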

How the data were processed

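Liver RNA of 4 mice was sequenced after poly(A) enrichment, per the labels' protocols. The submitters' processing notes name FastQC 0.10.1, Trim Galore 0.6.3, cutadapt, STAR 2.7.6a, Cufflinks 2.2.1 and build mm10. The deposited table gives 1 value per gene and liver. Its header names no unit, and the values made by the authors were taken as FPKM from their sums, their identifiers and their scaling with length. Whether the authors scaled libraries to each other, and whether counting used strand, is not given in the sources used here. Columns were matched through the sample descriptions, with 0 left unmatched, and 1 was added to each start.

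Values were analysed as log2(FPKM + 1), which understates differences of low genes, with Python 3.11.15, numpy 2.4.6 and pandas 2.3.3. Expressed genes had a mean of at least 1 FPKM. The depth estimate rests on genes for which GENCODE vM21 has a single transcript longer than 800 bases, as the median of FPKM times length less 200 bases between 25 and 75. That window was set in advance and bounds the estimate, which was not checked against known depths. Whole fragment counts were not recovered. There is 1 group, so no groups were compared. Dixon's ratio and the distance measure were tested on simulated data.

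The 9 genes and the 16 other lists were chosen with earlier results of these data known, and 2 lists (circadian clock, STAT5 targets of other cells) were added after the values of the 9 genes were seen. By a fixed rule, the genes named are the 9, the 3 most abundant and the 3 most variable of each list, the genes that background sentences describe, and up to 3 nearest patterns for each of the 3 widest members, of which 1 is not reported here. Fgf21, Retn, Pim1 and Pparg were named outside this rule, after their values were seen.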

Additional observations from a re-analysis of the deposited data

Results flagged for a closer look

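Of 111 genes named, 101 were expressed, and 4 of these had a liver far from the other 3 by Dixon's ratio. Chance alone marks about 1 in 20 groups of 4 values, and 5.46% of all expressed genes had such a liver. Among the 78 other listed genes that were expressed and are not named, 6 did. Socs2 was 3.13 FPKM in liver 1 while the others ranged from 12.6 to 14.1 FPKM (ratio 0.916). Apoa1 was 15343 FPKM in liver 4 while the others ranged from 11922 to 12320 FPKM (ratio 0.870). Asgr2, a hepatocyte receptor gene, was 167 FPKM in liver 3 while the others ranged from 91.4 to 101 FPKM (ratio 0.834). Sox9, a cholangiocyte marker, was 3.37 FPKM in liver 4 while the others ranged from 4.88 to 5.22 FPKM (ratio 0.841). Of the 9 genes of the growth hormone axis, Socs2 is the only one among these.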

How the results depend on the processing

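The median SD of the 9 genes was 0.49 and ranged from 0.17 to 0.59 when a liver was left out. The lowest value came without liver 1, where the SD of Bcl6 was 0.26, that of Cish 0.93, that of Igfals 0.15, that of Igf1 0.17 and that of Socs2 0.08. Without liver 4 the SD was 0.07 for Ghr and 0.08 for Stat5a, and without liver 2 it was 0.04 for Stat5b. The mean of Bcl6 was 4.50 FPKM without liver 1, that of Onecut1 4.92 FPKM without liver 3 and that of Cish 4.86 FPKM without liver 4. A pseudocount of 5 gave SDs of 0.88 for Cish, 0.91 for Onecut1, 0.60 for Socs2 and 0.11 for Stat5a. It also lowered the median SD of all expressed genes, from 0.16 to 0.11. The number of the 9 genes with a liver far from the others was 1, and 2 with Dixon's ratio on FPKM, where Bcl6 joined Socs2. This count was not run with a liver left out. The share of genes with such a liver was 5.46% among expressed genes and 11.3% with no filter on low values. Of 60 combinations of list and liver, which leave out the T and NK cell, B and plasma cell and adipose lists for holding fewer than 4 expressed genes, 14 had a median deviation of at least 0.2 in size, with 6 at a pseudocount of 5 and from 6 to 14 of 45 on leaving out a liver. Without liver 2 the acute phase median of liver 1 changed from -0.23 to 0.03. Median-ratio scaling changed the sign of 7 of the 60 medians, 0 of them among those of at least 0.2. The number of genes lowest in liver 1 was 6, and 6 or 7 when another liver was left out, while the share of all expressed genes then rose to at most 34.9%. The motif was found in 3 genes, and in 2 with the narrower letters. No paired analysis was possible because the livers form a single group. The depth limits values below about 1 FPKM, such as those of Cux2, Igf1r and Igf2.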

Other observations

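Genes that STAT5 activates in other cell types were looked at after the values of Socs2 and Cish were known. Of 8, 6 were expressed. Mcl1, Ccnd1 and Bcl2l1 were the most abundant, at 54.8 ± 12.9, 19.5 ± 1.78 and 13.8 ± 2.19 FPKM (each SD, n = 4). Myc was 2.28, 3.54, 2.33 and 14.3 FPKM in livers 1 to 4, and Gadd45g, the gene nearest to Cish in pattern, 4.39, 6.59, 5.70 and 24.0 FPKM, both highest in liver 4. Liver 4 was the highest for these 2 of the 6 genes, against 33.3% of expressed genes, and the lowest for 2 others, Bcl2l1 and Pim1 (18.1% of expressed genes were), the latter named after its values were seen. Neither Myc nor Gadd45g set liver 1 apart from livers 2 and 3 as Socs2 did.

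Genes of the circadian clock, likewise looked at afterwards, had a median SD of 0.18 over the 11 of 13 that were expressed, against 0.16 for all expressed genes. Dbp had a mean of 104 ± 10.1 FPKM and Tef 50.5 ± 3.76 FPKM (each SD, n = 4). Nr1d1 was 52.7, 39.3, 25.4 and 23.9 FPKM in livers 1 to 4 (SD 0.53 on the log2 scale), Cry1 2.88, 4.47, 5.85 and 6.03 FPKM and Per1 7.86, 6.41, 11.6 and 7.43 FPKM. Liver 1 was the highest for 4 of the 11 genes, Nr1d1 among them, against 17.9% of expressed genes, and the lowest for 2, Cry1 among them, against 20.7%, with a median log2 deviation of 0.03.

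Of 8 lipid uptake and storage genes that are raised in mice whose livers lack growth hormone signalling, 6 were expressed. Cd36 was 47.2, 67.1, 37.0 and 57.0 FPKM, Cidec 57.8, 28.8, 27.3 and 40.8 FPKM, and Mogat1 2.97, 1.05, 1.51 and 1.93 FPKM in livers 1 to 4. Liver 1 was the highest for 2 of the 6 genes, Cidec and Mogat1, against 17.9% of expressed genes, and the lowest for Pparg, named after its values were seen, at 15.2 FPKM against 21.7 to 25.8 FPKM in the other livers. Lpl had a mean of 33.5 ± 4.30 FPKM (SD, n = 4), and Plin4 was 1.72, 2.13, 0.825 and 2.53 FPKM. The 6 genes had a median deviation of 0.02 in liver 1, with 3 of 6 above the mean (47.2% of expressed genes were), and of -0.30 in liver 3. In liver 4 it was 0.19, with 6 of 6 above the mean (60.8% of expressed genes were).

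Genes linked to fasting, all 13 expressed, had medians between -0.02 and 0.05 in the 4 livers. Pck1 averaged 919 ± 155 FPKM and Angptl4 61.3 ± 4.79 FPKM (each SD, n = 4). G6pc was 131, 134, 242 and 149 FPKM, Trib3 4.79, 2.88, 2.11 and 3.07 FPKM, Foxo3 9.14, 8.87, 10.9 and 5.55 FPKM, and Fgf21, a hormone reported to blunt growth hormone signalling, 6.12, 5.61, 8.61 and 4.73 FPKM in livers 1 to 4.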
